A study of Danio rerio with 14 samples.

Results

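Genes that encode plasma proteins of the acute-phase response or the liver were followed in zebrafish hearts: transferrin (*tfa*), the fibrinogen alpha, beta and gamma chains (*fga*, *fgb*, *fgg*), serum amyloid A (*saa*), hepcidin (*hamp*), the liver fatty acid binding protein (*fabp10a*), apolipoproteins A-II and A-Ib (*apoa2*, *apoa1b*) and the precursor of alpha-1-microglobulin and bikunin (*ambp*). They are 10 of the 32520 genes counted, listed by symbol, and were chosen by how their counts differed between *il11a*OE and control hearts, with the acute-phase genes set beside the liver genes. The differences between these groups, and the count of genes called, are therefore given for them as a description and not as evidence. All 10 symbols matched a gene, and no exon of theirs overlaps another gene. *tfa* lies on chromosome 2 (from 16780643 to 16794710, GRCz11), *fga* and *fgb* on chromosome 1 (10063501 to 10071539 and 10051763 to 10059496), *fgg* on chromosome 1 (25669799 to 25679383), *saa* on chromosome 7 (12950507 to 12956434), *hamp*, *fabp10a* and *apoa2* on chromosome 16 (from 50289916, 52512025 and 23978978), *apoa1b* on chromosome 15 (from 102925) and *ambp* on chromosome 10 (from 10801564).

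Hearts of uninjured adult zebrafish were pooled for polyA RNA-seq. Every fish carried the transgene *actb2*:loxp-BFP-stop-loxp-*il11a* and was bathed once in 5 µM tamoxifen for 24 h. In *il11a*OE fish, *cmlc2*:creER, which is driven by a cardiomyocyte promoter, removes the stop cassette so that the broadly active *actb2* promoter transcribes *il11a* in these cells. Controls were littermates that lacked creER. Both groups were sampled at 7 days (7 dpt, 3 libraries each) and 7 months (7 mpt, 4 libraries each) after tamoxifen, and the library names at 7 mpt carry a letter, F or M, that is not defined in the sources used here.

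In vertebrates, hepatocytes make most plasma proteins. Cytokines of the IL-6 family, to which IL-11 belongs, act through gp130 and STAT3 during the acute-phase response, and in the liver they raise a subset of these proteins, among them fibrinogen, serum amyloid A and hepcidin. In mammals the 3 fibrinogen chains are made together and assemble in equal amounts, and transferrin falls rather than rises in the acute phase. *fabp10a*, the apolipoproteins and *ambp* are used as hepatocyte markers in zebrafish.

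The libraries held 61691132 to 80703699 counts at 7 dpt, where a count is a read pair, and 73275884 to 130058630 at 7 mpt, where both mates were counted singly and 99.1% to 99.4% of the values above 0 are even, so no level is set across time points. Levels are in CPM, each count taken relative to its library size after TMM scaling. *il11a* checked the labels, with 41.6 to 53.7 CPM in control and 325 to 386 CPM in *il11a*OE at 7 dpt, and 41.0 to 90.5 and 262 to 433 CPM at 7 mpt. The 9 cardiomyocyte markers summed to 100777 to 114251 CPM in control and 57310 to 69797 CPM in *il11a*OE at 7 dpt, and to 90272 to 127662 and 30328 to 52240 CPM at 7 mpt. At 7 mpt, control replicates 2 and 4 held more of some liver transcripts than the other control libraries, but not of all. *fetub* had 100 and 54 counts there and 0 in control replicates 1 and 3, and *serpina1* had 20 and 20 against 0 and 0. *vtg1*, a vitellogenin, had 360, 4700, 0 and 0 counts in control replicates 1 to 4 and 258, 156, 6 and 8 in those of *il11a*OE. In both groups replicates 1 and 2 carry the letter F and replicates 3 and 4 the letter M. The 0 of *vtg1* in control replicate 4 thus went with the letter (F over M by 7.33 on the log2 scale, edgeR adjusted p = 0.245). *cyp7a1*, the rate-limiting enzyme of bile acid synthesis, had 240 counts in control replicate 4 and 0 in control replicate 2. Over all 39 liver plasma protein genes outside the 10, replicate 2 was the lowest control library, at 718 CPM. Most of that sum was *rbp4* and *f10*, at control means of 488 and 255 CPM. Over the 35 of these genes under 10 CPM in both control groups, control replicates 2 and 4 were the highest control libraries. Replicate 4 was at 22.3 CPM there, and control replicates 1 and 3 were at 19.3 and 15.3 CPM. *il11a*OE libraries of 7 mpt held liver transcripts as well, with 0, 22, 14 and 26 counts of *fetub* in replicates 1 to 4. Summed over the 55 liver genes under 1 CPM in both control groups, the 4 control libraries were at 5.71, 8.83, 6.03 and 16.7 CPM and the *il11a*OE libraries at 7.98, 9.89, 16.4 and 14.8 CPM, which overlap. The part of liver RNA in the values below was not tested. Values at 7 mpt are also given without control replicates 2 and 4. Those fits are one-sided for liver genes, since *il11a*OE replicates 3 and 4, at 16.4 and 14.8 CPM in that sum, are kept. In bulk hearts, fewer cells of a type and less RNA per cell cannot be told apart.

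**Figure D1:**
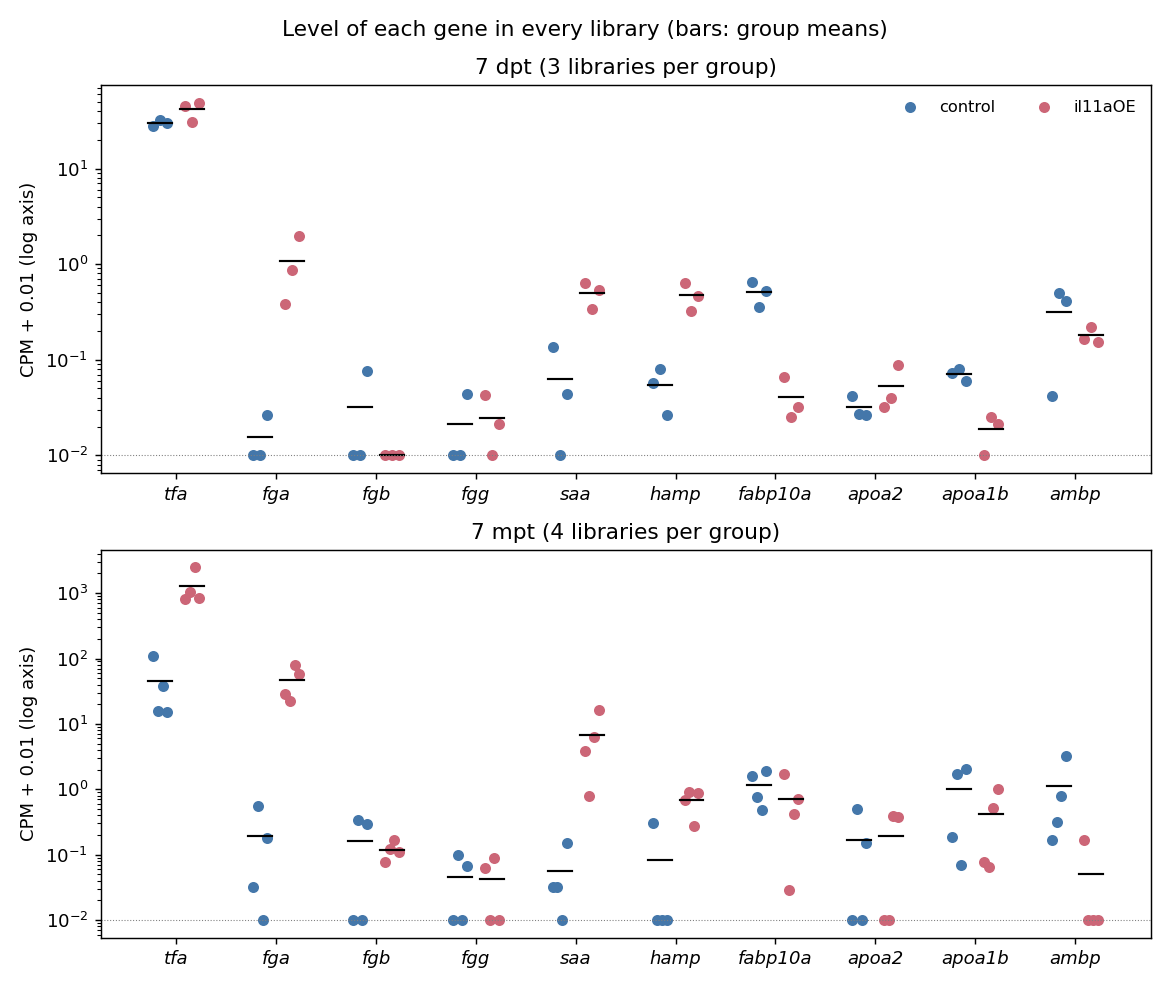
Level of each of the 10 genes in every library at 7 dpt (top) and 7 mpt (bottom), as CPM + 0.01 on a log axis, with points for libraries, bars for group means and a dotted line where a count of 0 lies. *fga* and *saa* of *il11a*OE lie above all control libraries at both time points, while *fgb* and *fgg* reach no more than 0.329 and 0.0876 CPM in any library of either group.

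*tfa*, which carries iron in plasma, was the most abundant of the 10 per kb of exon in all libraries but control replicate 4 of 7 mpt, where *fabp10a* was higher. At 7 dpt it was at 27.8, 32.4 and 29.8 CPM in control replicates 1 to 3 and at 45.6, 30.4 and 49.0 CPM in *il11a*OE. *il11a*OE replicate 2 lay among the control libraries, so the groups overlapped, and the log2 fold change was 0.48 (standard error, SE, 0.18). At 7 mpt control replicates 1 to 4 were at 111, 15.7, 37.8 and 15.1 CPM and *il11a*OE replicates at 827, 1040, 2481 and 856 CPM. All *il11a*OE libraries were above all control libraries, by a log2 fold change of 4.86 (SE 0.79), or 5.83 without control replicate 1, the highest control. In the *il11a*OE libraries *tfa* took 0.095% to 0.295% of all counts and ranked between 29 and 124 among genes by counts, where in control it ranked between 1053 and 5479. Without control replicates 2 and 4 the log2 fold change was 4.13.

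*hamp* encodes hepcidin, the hormone that lowers iron export from cells by degrading ferroportin. At 7 dpt it had 3, 4 and 1 counts in control and 56, 21 and 41 in *il11a*OE, or 0.0444 ± 0.0264 and 0.463 ± 0.152 CPM (mean ± SD, n = 3 each). The groups did not overlap, and the log2 fold change was 3.34 (SE 0.54). At 7 mpt a single control library, replicate 1, held all 26 control counts, and the other 3 had 0, while *il11a*OE had 100, 96, 34 and 70. *il11a*OE replicate 3, at 0.266 CPM, fell below that control library, at 0.291 CPM, and the log2 fold change was 3.14 (SE 1.4), or 9.06 in the fit without it, a value that rests on controls at 0, and 2.16 without control replicates 2 and 4. *hamp* stayed under 1 CPM in every library.

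Of 30 other genes of iron handling, 26 were tested at 7 dpt, where edgeR called 2 higher and 11 lower in *il11a*OE at an adjusted p under 0.05, and 27 at 7 mpt, where 2 were higher and 5 lower (1 and 3 without control replicates 2 and 4). The median log2 fold change was -0.37 and -0.12, against 0.02 and 0.03 over all genes tested. The count of lower genes at 7 dpt was between 4 and 7 without control replicate 1 or 3 or any one *il11a*OE library, and 1 gene was called higher without any one control library or *il11a*OE replicate 3. Of all genes tested, 20.2% were called higher and 17.1% lower at 7 dpt, and 14.2% and 12.2% at 7 mpt. *hjv*, a coreceptor that in mammals is needed for hepcidin expression, fell at both time points, with log2 fold changes of -1.42 (SE 0.28, adjusted p = 0.00891) at 7 dpt and -2.90 (SE 0.50, adjusted p = 0.00245) at 7 mpt. *bmp6*, a ligand upstream of hepcidin, rose by 2.26 at 7 mpt (SE 0.37, adjusted p = 0.00167), and its log2 fold change at 7 dpt was -0.62 (adjusted p = 0.0393), a call lost in 5 of 6 fits that left out a library (adjusted p up to 0.118). *slc11a2*, an iron importer, fell at 7 mpt, from 72.5 to 29.4 CPM (log2 fold change -1.30, adjusted p = 0.00528). The ferritin subunit *fth1a* had the highest control level per kb of the list at both time points, with log2 fold changes of -0.35 and -0.43 (adjusted p = 0.126 and 0.0719). *hephl1a*, related to ceruloplasmin, rose by 0.63 and 0.72 (adjusted p = 0.00752 and 0.0141).

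The fibrinogen chains did not move as a unit. At 7 dpt *fga* had 0, 0 and 1 counts in control and 34, 57 and 180 in *il11a*OE. No library of the groups overlapped, and the summed counts, 1 against 271, gave a ratio of 198 with a 95% exact counting interval from 35.3 to 7867, which covers counting error only. The fitted log2 fold change, 7.21 (SE 1.1), depends on how a control count near 0 is treated and was 9.31 without control replicate 3, which held the control count, and 6.40 without *il11a*OE replicate 3, the highest library. At 7 mpt *fga* had 2, 50, 0 and 12 counts in control and 4300, 2388, 10066 and 4710 in *il11a*OE. The lowest *il11a*OE library, at 22.1 CPM, was far above the highest control library, replicate 2, at 0.548 CPM, and the log2 fold change was 7.92 (SE 1.0), or 9.53 without control replicate 2.

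*fgb*, the neighbour of *fga* on chromosome 1 that runs towards it with 4004 bases between their ends, had 0, 0 and 4 counts in control and 0 in each *il11a*OE library at 7 dpt. The ratio of its summed counts at 7 dpt had a 95% exact counting interval from 0 to 1.11. At 7 mpt *fgb* had 0, 30, 0 and 20 in control and 10, 12, 20 and 8 in *il11a*OE. All control counts at 7 mpt came from replicates 2 and 4, the groups overlapped, and the log2 fold change was -0.50 (SE 1.3), which turned to 6.51 without these libraries, against controls at 0. *fgg* had 0, 0 and 2 against 3, 0 and 1 counts at 7 dpt, and 0, 8, 0 and 4 against 8, 0, 10 and 0 at 7 mpt, too few to fit. Its ratio of summed counts at 7 dpt was 1.46 (95% exact counting interval 0.21 to 16.2). The summed counts of *fgg* at 7 mpt were 12 in control and 18 in *il11a*OE, where each mate is a count.

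**Figure D2:**
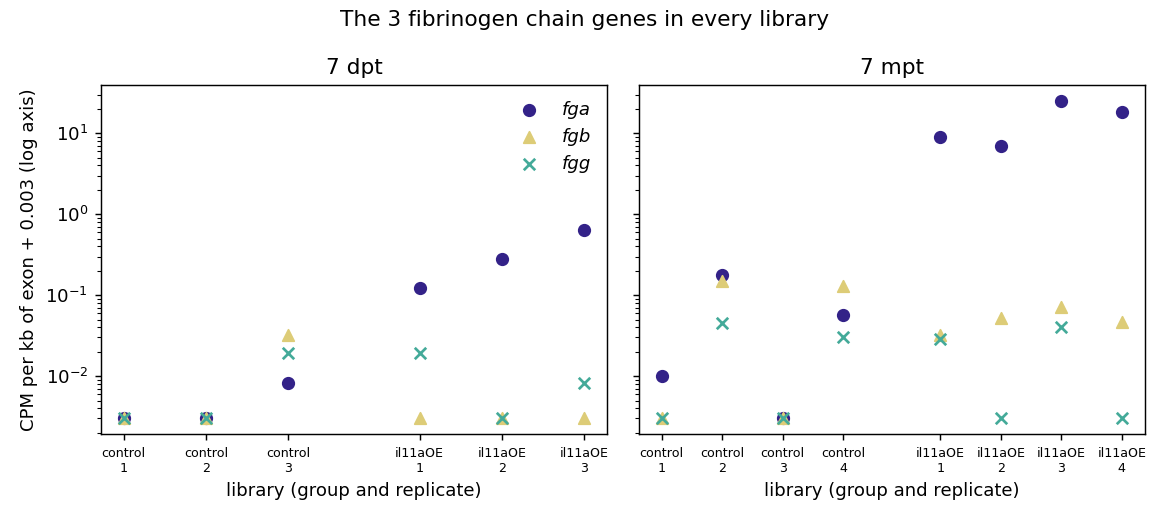
CPM per kb of exon + 0.003 (log axis) of *fga* (circles), *fgb* (triangles) and *fgg* (crosses) in every library at 7 dpt (left) and 7 mpt (right). In the 4 *il11a*OE libraries of 7 mpt *fga* lies between 7.03 and 25.1 CPM per kb and both other chains at no more than 0.0695, while in control replicates 2 and 4 the 3 chains lie closer together.

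Per kb of exon, *fga* was 143 to 423 times as abundant as *fgb* in the *il11a*OE libraries of 7 mpt. In control replicates 2 and 4, the only control libraries of 7 mpt with *fgb*, it was 1.2 and 0.431 times as abundant. In those control libraries both chains were at like levels, and in the *il11a*OE libraries *fga* came with little *fgb* or *fgg*. *si:ch73-132f6.5*, the next gene on the other side of *fga*, 2803 bases away, went the other way from *fga*, with log2 fold changes of -0.50 and -1.09 (adjusted p = 0.0120 and 0.000746). *RNF175*, which lies beyond *fgb*, had 0.41 and 0.34 (adjusted p = 0.0146 and 0.0717).

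*saa*, an apolipoprotein of the acute phase, had 8, 0 and 2 counts in control and 56, 22 and 48 in *il11a*OE at 7 dpt. The groups did not overlap, and the ratio of the summed counts was 9.23 (95% exact counting interval 4.86 to 19.7, for counting error only). The fitted log2 fold change was 3.15 (SE 0.83), or 4.73 without control replicate 1, and the gene was not called in the fits that left out control replicate 3, *il11a*OE replicate 1 or *il11a*OE replicate 3. At 7 mpt it had 2, 2, 0 and 10 counts in control and 582, 84, 800 and 1310 in *il11a*OE. *il11a*OE replicate 2 was the lowest, at 0.778 CPM, and replicate 4 the highest, at 16.1 CPM, and each was above all control libraries, which reached 0.142 CPM. The log2 fold change was 7.19 (SE 1.2), and it was 8.62 without control replicate 4 and 6.29 without *il11a*OE replicate 4.

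The liver genes of the set did not follow. *fabp10a* had 41, 20 and 31 counts in control and 5, 1 and 2 in *il11a*OE at 7 dpt. Every *il11a*OE library was below every control library, by a log2 fold change of -3.91 (SE 0.54), or -4.59 without *il11a*OE replicate 1. At 7 mpt it had 142, 68, 32 and 132 counts in control and 260, 2, 52 and 56 in *il11a*OE. *il11a*OE held both a library near the control maximum, replicate 1 at 1.73 CPM, and one near 0, replicate 2 at 0.0185 CPM, and the log2 fold change was -0.71 (SE 0.93), or -0.54 without control replicates 2 and 4.

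*apoa1b*, a main protein of high-density lipoprotein, had 4, 4 and 3 counts in control and 0, 1 and 1 in *il11a*OE at 7 dpt. The ratio was 0.133 (95% exact counting interval 0.0143 to 0.610, which leaves out the spread between libraries). The groups did not overlap, at counts too low to fit. At 7 mpt it had 16, 154, 4 and 142 counts in control and 10, 6, 64 and 80 in *il11a*OE. Control replicates 2 and 4 were the highest and the groups overlapped, with a log2 fold change of -1.30 (SE 1.2). The fold change became 1.72 without these control libraries, while the *il11a*OE libraries with 64 and 80 counts were kept. *apoa2*, a second protein of these particles, was at 1 to 2 counts in the control libraries and at 2 to 7 in those of *il11a*OE at 7 dpt. The ratio of its summed counts was 2.01 (95% exact counting interval 0.597 to 8.67). At 7 mpt it had 0, 44, 0 and 10 counts in control and 0, 0, 48 and 30 in *il11a*OE, with overlap and a log2 fold change of 0.23 (SE 1.8), or 7.28 without control replicates 2 and 4, against controls at 0.

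*ambp*, whose product is cleaved into a lipocalin and a protease inhibitor, had 2, 28 and 24 counts in control and 14, 14 and 13 in *il11a*OE at 7 dpt. The *il11a*OE libraries lay between the control libraries, with a log2 fold change of -0.85 (SE 0.80). At 7 mpt control had 14, 28, 52 and 230 counts, and in *il11a*OE replicate 1 had 24 and the other 3 had 0. The groups overlapped by replicate 1, at 0.159 CPM, against 0.157 CPM in the lowest control, and the log2 fold change was -4.67 (SE 1.6), or -3.25 without control replicate 4 and -9.68 without *il11a*OE replicate 1, which leaves *il11a*OE at 0. Without control replicates 2 and 4 it was -3.43.

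**Figure D3:**
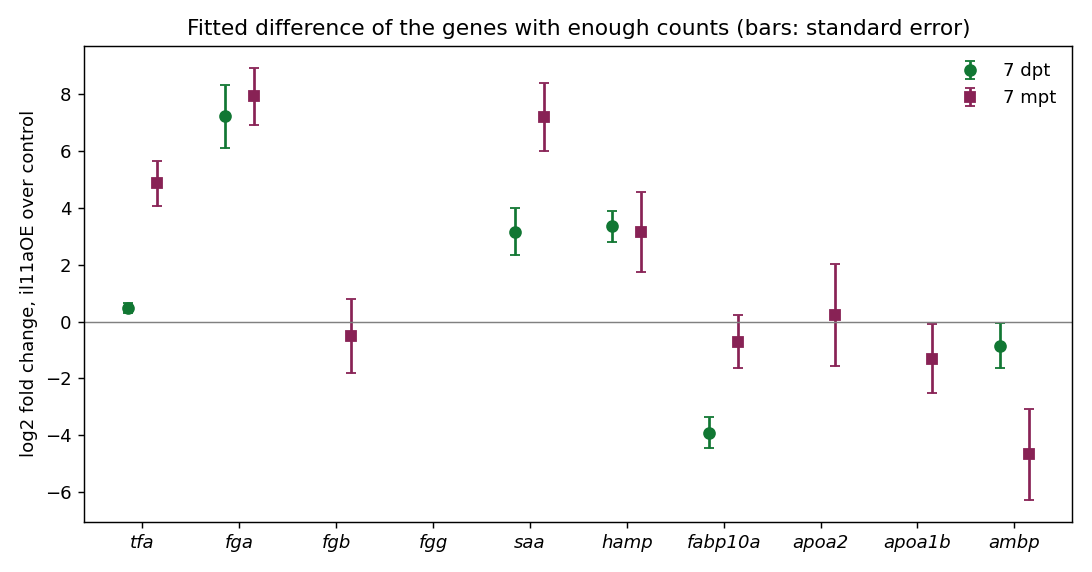
Fitted log2 fold change of *il11a*OE over control (y axis) with its standard error, for the genes with enough counts at 7 dpt (circles) and 7 mpt (squares). At 7 mpt *tfa*, *fga* and *saa* lie between 4.86 and 7.92, and the 5 fitted genes from *fgb* and *fabp10a* to *ambp* lie between -4.67 and 0.23. *hamp*, whose groups overlapped at 7 mpt, lies between these sets at 3.14 (SE 1.4).

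At 7 dpt 6 of the 10 genes had enough counts to be fitted, and 3 were called higher (*fga*, *saa*, *hamp*) and 1 lower (*fabp10a*) by edgeR, at adjusted p under 0.05. Of all 19647 genes tested there, 20.2% were called higher and 17.1% lower. At 7 mpt 9 were fitted, and 3 were called higher (*tfa*, *fga*, *saa*) and 0 lower, where DESeq2 called 2 higher and 1 lower and 1 was lower at an unadjusted edgeR p under 0.05. Of the 18689 genes tested, 14.2% were called higher and 12.2% lower. Libraries of both genotypes stayed apart for 4 of the 6 genes at 7 dpt and for 3 of the 9 at 7 mpt, against 52.6% and 30.8% of all genes tested. These counts repeat what the genes were chosen by. At 7 dpt *fga*, *saa* and *hamp* also passed the filter through *il11a*OE, and *fabp10a* through control. At 7 mpt *fga*, *saa* and *hamp* again passed it through *il11a*OE, and *ambp* through control. The filter therefore favoured genes whose groups lie apart at both time points.

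The letter in the library names was not used to choose the genes, and each of the genes was tested for it at 7 mpt with genotype in the fit. edgeR called 0 of the 9 genes (1 at an unadjusted p under 0.05) and DESeq2 0, where 0.00478% of the 20915 genes tested were called by edgeR. On simulated counts edgeR recovered 18% of letter differences of 1 on the log2 scale and 63% of those of 2, so differences of these sizes could be missed. The simulated differences were placed only in genes with higher mean counts than *fgb* and *apoa2*, so the rates do not cover such low genes. *saa* was the nearest, lower in the F libraries by 2.11 on the log2 scale (SE 0.83, adjusted p = 0.419). For *tfa* the difference was 0.21 (SE 0.79, adjusted p = 0.955) and for *fga* -0.49 (SE 0.94, adjusted p = 0.898). Within each letter, *il11a*OE was above control in *tfa*, *fga* and *saa*. This follows from groups that did not overlap, repeats what the genes were chosen by and is not separate evidence. *tfa* went from 63.3 to 933 CPM in the F libraries and from 26.4 to 1668 CPM in the M libraries, *fga* from 0.285 to 25.3 and from 0.0849 to 68.4 CPM, and *saa* from 0.0221 to 2.32 and from 0.0708 to 11.2 CPM, as means of 2 libraries each. Whether these effects differ between the letters was not tested.

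**Figure D4:**
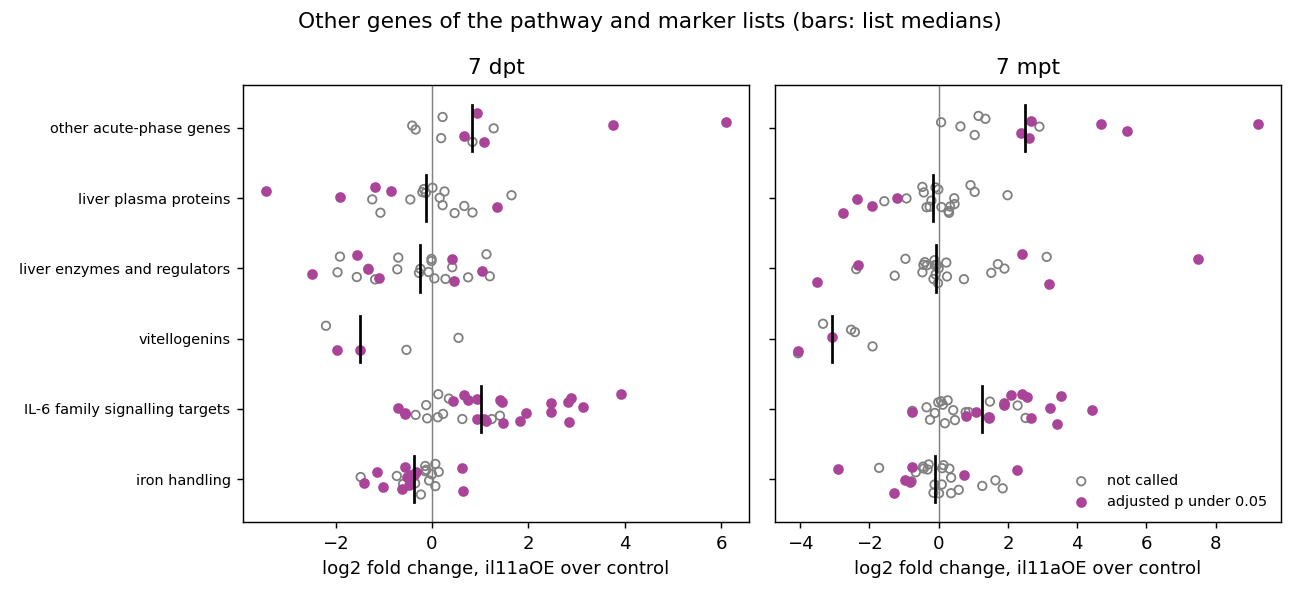
Log2 fold change of *il11a*OE over control (x axis) for each tested gene of 6 lists that leave out the 10 genes, at 7 dpt (left) and 7 mpt (right), with filled points at an edgeR adjusted p under 0.05 and bars at list medians. The medians of other acute-phase genes lie at 0.84 and 2.49, and those of both liver lists between -0.24 and -0.07.

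Among 31 other acute-phase genes, 11 were tested at 7 dpt and 12 at 7 mpt. Of these, 5 were higher and 0 lower at 7 dpt, and 6 higher and 0 lower at 7 mpt by edgeR (adjusted p under 0.05), with medians of 0.84 and 2.49 against 0.02 and 0.03 over all genes. No gene was lower at an unadjusted p under 0.05 or with DESeq2, and 6 were higher at 7 mpt without control replicates 2 and 4 too. Over all genes tested, 20.2% were called higher and 17.1% lower at 7 dpt, and 14.2% and 12.2% at 7 mpt. The list was chosen with earlier results of these data known, and 6 of its 31 genes reached a control mean of 1 CPM at each time point. A gene near 0 in control, such as *serping1* at 7 mpt, passed the filter through *il11a*OE and could only be called higher. The lack of lower calls and the medians are therefore in part set by the filter. Among the called genes of the list, *c3a.1* and *c4b* rose most at 7 dpt, and *c3a.1* and *serping1* at 7 mpt. *c3a.1*, a complement C3, rose from 2.37 to 162 CPM at 7 dpt (log2 fold change 6.10, SE 0.31, adjusted p = 8.55e-05) and from 1.43 to 845 CPM at 7 mpt (9.21, SE 0.61, adjusted p = 3.96e-05), and *c4b*, a complement C4, rose from 44.9 to 606 CPM at 7 dpt (3.76, adjusted p = 5.26e-05). *serping1*, the inhibitor of complement C1, was at 0 to 4 counts in the control libraries and at 20 to 116 in those of *il11a*OE at 7 mpt (log2 fold change 5.44, SE 1.2, adjusted p = 0.00941, and 8.85 without control replicate 1). *steap4*, a metalloreductase, rose by 1.08 (adjusted p = 0.0343) and 2.61 (adjusted p = 0.00112), the first call being lost in 4 of 6 fits that left out a library (adjusted p up to 0.105). *cebpd*, a transcription factor of the acute phase, had 0.66 at 7 dpt (adjusted p = 0.0243, lost without *il11a*OE replicate 1 or 3, at 0.0766 and 0.0540) and 0.07 at 7 mpt (adjusted p = 0.865). Only 3 genes were called higher at 7 dpt without *il11a*OE replicate 1 or 3. Some acute-phase genes of the list were barely counted. Hemopexin, *hpx*, had at most 1 count at 7 dpt and 8 at 7 mpt, and *serpina1* at most 1 and 20, in any library.

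Of 39 other liver plasma protein genes, 19 were tested at 7 dpt, 1 higher and 4 lower, and 22 at 7 mpt, 0 higher and 4 lower. Over all genes 17.1% and 12.2% were called lower, so the lower calls of the list lie near the background. At 7 mpt 0 were higher at an unadjusted edgeR p under 0.05 or with DESeq2, and 1 was called higher without control replicate 2, or without control replicates 2 and 4. Medians were -0.13 and -0.15. *igfbp1b*, which binds insulin-like growth factors, fell by 3.44 (SE 0.26, adjusted p = 0.000255) and 2.35 (SE 0.46, adjusted p = 0.00431), *ahsg1*, a fetuin, fell by 1.90 at 7 dpt (adjusted p = 0.00328) and 1.92 at 7 mpt (adjusted p = 0.00497), and the carboxylesterase *ces2a* fell by 2.76 at 7 mpt (adjusted p = 0.0102, 2.12 without control replicate 4). *apoa4b.1* was the gene called higher (1.35, adjusted p = 0.0238), a call lost in 4 of 6 fits that left out a library (adjusted p up to 0.0824). *rbp4*, the retinol carrier, and coagulation factor X, *f10*, had the highest control levels per kb of the list, at 718 and 287 CPM in control at 7 dpt. *rbp4* fell by 1.19 at 7 dpt (adjusted p = 0.000720) and had 0.28 at 7 mpt (adjusted p = 0.329), and *f10* fell by 0.86 and 1.19 (adjusted p = 0.00584 and 0.0152).

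Of 44 liver enzymes and regulators, 25 were tested at 7 dpt, 3 higher and 4 lower, and 26 at 7 mpt, 3 higher and 2 lower, with medians of -0.24 and -0.07 (3 higher and 1 lower at 7 mpt without control replicates 2 and 4). These small counts were not stable: at 7 dpt 1 gene was called higher with DESeq2's size factors or without any one library other than *il11a*OE replicate 2, and at 7 mpt 5 were called higher without control replicate 1 or *il11a*OE replicate 1, and 1 lower without control replicate 2, 3 or 4 or *il11a*OE replicate 1, 2 or 4. Of all genes tested, 20.2% were called higher and 17.1% lower at 7 dpt, and 14.2% and 12.2% at 7 mpt. *sult2st1*, a sulfotransferase, fell from 166 to 29.5 CPM at 7 dpt (log2 fold change -2.49, adjusted p = 0.00334) and *mat1a*, which makes S-adenosylmethionine, fell from 12.1 to 1.07 CPM at 7 mpt (-3.50, adjusted p = 0.000112). *nr1h4*, the bile acid receptor, was at 0 to 2 counts in the control libraries and at 24 to 364 in those of *il11a*OE at 7 mpt (adjusted p = 0.00179), and *nr0b2a*, a corepressor that this receptor induces in mammalian liver, rose by 3.19 (SE 0.79, adjusted p = 0.0153). Genes that define hepatocytes were not all absent. *hnf4a*, the factor that specifies hepatocyte expression, and *cyp2k22* had 0 counts in all 14 libraries, and *slc10a1*, the bile acid importer, had at most 4 in any library. Some enzymes of amino acid metabolism were counted in both groups. At 7 dpt *fah* had 132 to 151 counts in the control libraries and 233 to 283 in *il11a*OE, and *bhmt* had 341 to 543 and 258 to 517. In CPM *fah* went from 2.38 to 3.24 (log2 fold change 0.45, edgeR adjusted p = 0.0397). That call was lost in every fit that left out a library (adjusted p up to 0.105). Other enzymes were lower or mixed, with *hpda* at 12 to 25 and 3 to 11 counts, *pah* at 4 to 37 and 0 to 1, and *cps1* at 0 to 11 and 2 to 33.

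**Figure D5:**
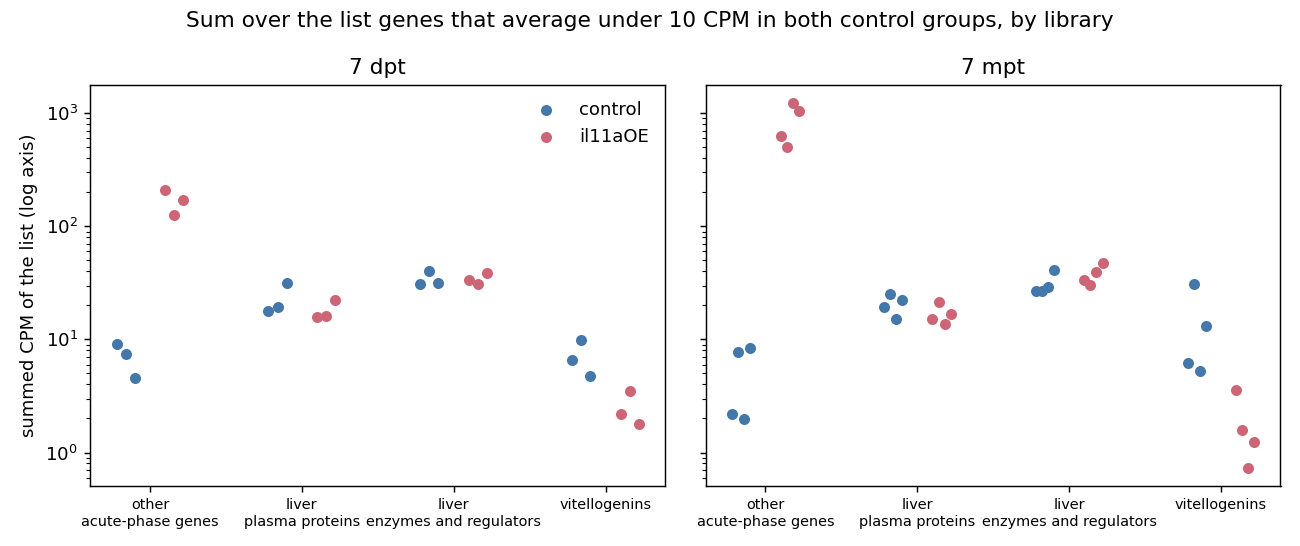
Summed CPM (log axis) in each library over the genes of 4 lists that average under 10 CPM in both control groups, for control and *il11a*OE at 7 dpt (left) and 7 mpt (right). Sums of the 27 acute-phase genes do not overlap between the groups. Most of that sum in *il11a*OE is *c3a.1*, with means of 162 CPM at 7 dpt and 845 CPM at 7 mpt. Sums of the 35 liver plasma protein genes overlap at both time points, but liver genes above that level are not plotted. With them the liver sums of *il11a*OE lie below those of control at 7 dpt, where *rbp4*, *f10* and *sult2st1* are much of the control sums.

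Summed over the 27 acute-phase genes under 10 CPM in both control groups, libraries ran from 4.57 to 9.07 CPM in control and from 125 to 208 CPM in *il11a*OE at 7 dpt, and from 1.96 to 8.39 and from 504 to 1234 CPM at 7 mpt. Most of the *il11a*OE sum was *c3a.1* alone, at a mean of 162 CPM at 7 dpt and 845 CPM at 7 mpt. The sum therefore does not show a rise across the list. The 35 liver plasma protein genes under that level summed to 17.9 to 31.4 and 15.7 to 22.2 CPM at 7 dpt, and to 15.3 to 25 and 13.8 to 21.6 CPM at 7 mpt. The 36 liver enzymes and regulators summed to 31.2 to 39.9 and 30.8 to 38.8 CPM, and to 26.9 to 41.5 and 30.5 to 47.6 CPM. These sums leave out the liver genes with higher levels in control hearts. Over all 39 liver plasma protein genes the groups did not overlap at 7 dpt, with 967 to 1240 CPM in control and 556 to 615 CPM in *il11a*OE, and overlapped at 7 mpt, with 718 to 991 and 774 to 932 CPM. Most of the sums at 7 dpt was *rbp4* and *f10*, at means of 718 and 287 CPM in control and 315 and 159 CPM in *il11a*OE. Over all 44 liver enzymes and regulators the sums were 271 to 357 and 113 to 136 CPM at 7 dpt, without overlap, and 103 to 185 and 87 to 113 CPM at 7 mpt, with overlap. The 7 vitellogenins are egg yolk precursors from the liver of egg-laying females. Some copies are near-identical, and reads that map to several of them were not counted. They summed to 5.26 to 82.3 CPM in control and 0.783 to 5.30 CPM in *il11a*OE at 7 mpt, and 2 were called lower at each time point, among them *vtg4* (-1.98 and -3.07, adjusted p = 0.0222 and 0.000997). The first of these calls was lost without control replicate 1 or 2 or *il11a*OE replicate 1 (adjusted p up to 0.0770). The other calls held less well, *vtg2* at 7 dpt (adjusted p = 0.0427) being lost in all 6 fits that left out a library (up to 0.135) and *vtg6* at 7 mpt (adjusted p = 0.0306) in 4 of 8, without control replicate 2 or 4 or *il11a*OE replicate 2 or 3 (up to 0.0899). Without control replicates 2 and 4 the log2 fold changes at 7 mpt were 11.72 for *fga* and 8.94 for *saa*, against controls with at most 2 counts.

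Of 34 targets and receptors of IL-6 family signalling, 32 were tested at each time point, 19 were higher and 3 lower at 7 dpt, and 14 higher and 1 lower at 7 mpt (9 higher without control replicates 2 and 4), the lower calls falling to 0 or 1 without control replicate 2 or *il11a*OE replicate 1 or 3 at 7 dpt, and to 0 without *il11a*OE replicate 2 or 3 at 7 mpt, with medians of 1.01 and 1.26. Of all genes tested, 20.2% were called higher and 17.1% lower at 7 dpt, and 14.2% and 12.2% at 7 mpt. *socs3b*, the feedback inhibitor, whose exons overlap another gene, rose by 3.93 at 7 dpt (SE 0.18, adjusted p = 5.71e-05), and *socs3a* from 287 to 1074 CPM at 7 mpt (1.90, adjusted p = 0.00704). *junba*, an AP-1 factor, rose by 3.14 at 7 dpt (adjusted p = 0.000255), and *lifrb*, a receptor of this family, by 4.43 at 7 mpt (adjusted p = 3.09e-05). *il11ra*, the receptor of IL-11, had -0.71 at 7 dpt (adjusted p = 0.0318, lost in 4 of 6 fits that left out a library, at up to 0.115).

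Marker lists of other cell types were counted in the same libraries, where 20.2% of all genes tested were called higher and 17.1% lower at 7 dpt. At 7 mpt these shares were 14.2% and 12.2%. All 10 macrophage markers were higher at 7 dpt and 8 at 7 mpt, with sums of 75.8 to 101 CPM in control and 324 to 415 in *il11a*OE at 7 dpt, and 63.9 to 153 and 385 to 689 CPM at 7 mpt. Of the neutrophil markers, 4 of 6 tested were higher at 7 dpt and 4 of 7 at 7 mpt, with sums of 42.5 to 47.7 and 108 to 109 CPM, and of 35.2 to 185 and 185 to 979 CPM. Of 9 epicardial and fibroblast markers, 3 were higher and 2 lower at 7 dpt (*pdgfra*, higher, and *tcf21*, lower, each being lost in 4 of 6 fits that left out a library) and 7 higher at 7 mpt, with sums of 432 to 559 and 671 to 961 CPM, and of 574 to 1023 and 2803 to 4567 CPM. The part of these cells in the values of *tfa*, *fga* and *saa* was not tested. Of 6 erythroid markers 5 were lower at 7 dpt and 0 at 7 mpt (0 lower at an unadjusted p under 0.05 or with DESeq2), and the calls at 7 dpt went from 5 to 0 without *il11a*OE replicate 1 or 3. Of 9 endothelial markers 1 was higher and 4 lower at 7 dpt and 1 higher and 6 lower at 7 mpt. Of the 9 cardiomyocyte markers 1 was higher and 7 lower at each time point. Sums over 11 exocrine pancreas genes were lower in *il11a*OE at 7 dpt (5.66 to 6.37 and 4.07 to 5.07 CPM) and overlapped at 7 mpt (3.36 to 16.4 and 3.64 to 5.22 CPM), and those over 8 intestine genes did at both time points, at no more than 2.01 CPM.

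For each of the 10 genes fitted at both time points, the genes closest in pattern were found by the mean absolute difference in log2(CPM + 0.5) over the 14 libraries after centring each time point, among genes with a mean of at least 1 CPM. This is a description over libraries that share the same 2 groups. *fga* was closest to *lepb*, a leptin gene (0.498 on the log2 scale, where *fga* itself deviated by 2.04 on average), then to *cspg5a*, a proteoglycan (0.515), and *si:ch211-106h4.12* (0.617). *tfa* was closest to *si:busm1-57f23.1* (0.408), *si:ch211-106h4.12* (0.477) and *si:ch211-136a13.1* (0.484), and *saa* to ENSDARG00000113076 (0.310), *plaua*, a urokinase (0.326), and *eomesa* (0.409). *hamp*, *fabp10a* and *ambp* were too low for the measure to separate genes, since their own deviations were 0.475 to 0.533. Their closest genes were *NCK2*, *s100u* and *sdc4* for *hamp*, *HMGCS1*, *FKBP3* and *ERBB4* for *fabp10a*, and *PTPRG*, *CHCHD7* and *tdrkh* for *ambp*, at 0.126 to 0.277. None of these closest genes was itself one of the 10. Of the 10, however, only *tfa*, *fga* and *saa* reached a mean of 1 CPM, so the others could not be listed.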

How the data were processed

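PolyA RNA of pooled hearts was sequenced in 14 libraries. The authors trimmed adaptors with Cutadapt, aligned reads to GRCz11 with HISAT2 and assigned them to Ensembl 104 exons by featureCounts 2.0.0 without regard to strand. Reads that mapped to several places or genes were not counted. What the authors deposited is a whole-number count for each gene. At 7 dpt the deposited counts are read pairs and at 7 mpt single mates. Per library, 67.9% to 75.5% of reads were assigned to genes.

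Genes that passed filterByExpr were compared within each time point by the quasi-likelihood F test of edgeR (robust option, TMM scaling), adjusted over all genes with Benjamini-Hochberg (R 4.3.3, edgeR 4.0.16, limma 3.58.1). Standard errors are the log2 fold change over the root of F. At 7 mpt the letter was tested with genotype in the fit. Symbols were matched to 29399 of 32520 identifiers. The symbol *saa* was taken from the study's own pairing of identifiers and symbols. A floor of 3 counts per library only set which genes got a counting interval. Fits against groups at 0 used no such floor. The fits were tested on simulated counts, with changes placed only in genes of higher mean counts than the lowest of the 10. There edgeR recovered 54.5% of log2 changes of 1 at 7 dpt, 20% at 7 mpt and 18% for the letter. Of its calls, 7.52%, 1.28% and 6.9% were false. Of the calls of DESeq2, 30.7%, 29.2% and 27% were false. Log2 changes of 1 and 2 were placed in 99 and 98 tested genes of 19252 at 7 dpt. At 7 mpt they were placed in 95 and 97 of 18007. In the data 7318 and 4928 genes were called at these time points. Whether the rates hold where so many genes change was not tested. The 10 genes and the gene lists were chosen with earlier results of these data known. Named are the 10 genes, from each list and time point the 2 called genes that rose most, the 2 that fell most and the 2 highest in control per kb, of which a part is printed, and the 3 genes closest to each of the 10 fitted at both time points. The genes *hpx*, *serpina1*, *fetub*, *vtg1*, *cyp7a1*, *hnf4a*, *cyp2k22*, *slc10a1*, *bhmt*, *hpda*, *pah*, *cps1*, *pdgfra*, *tcf21* and the neighbours of *fga* were named after their values were seen. The study's methods give 3 replicate pools per group, while each 7 mpt group has 4 libraries, so how libraries map to pools is not given there, and p-values measure the spread between libraries.

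The alternatives tried were edgeR with size factors from DESeq2, DESeq2 1.42.0 itself, a filter that kept every gene with 1 count, a stricter one that asked for 10 counts in all libraries, the replicate number as a block, the letter as a covariate, the letter contrast within each genotype, and each library left out. The fit without control replicates 2 and 4 at 7 mpt was chosen after the data had been seen. Promoter sequence was not used here, so planned motif counts were not made.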

Additional observations from a re-analysis of the deposited data

Results flagged for a closer look

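At 7 mpt, where groups have 4 libraries, the highest library stood apart from the next by more of the group's range than Dixon's 95% limit in 4 of 20 groups of values of the 10 genes. The limit is set for normal values, of which about 1 in 20 would pass it. Several of these groups are counts near 0, so the 4 cannot be compared with that rate. *tfa* was at 2481 CPM in *il11a*OE replicate 3, with a gap of 0.872 of the range. *saa* was at 0.142 CPM in control replicate 4 (0.842), a matter of 10 counts. *hamp* was at 0.291 CPM in control replicate 1 and 0 in the other control libraries, and *ambp* was at 0.159 CPM in *il11a*OE replicate 1 and 0 in the others of its group, a gap of 1.0 in both.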

How the results depend on the processing

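The number of genes called was 7318 at 7 dpt and 4928 at 7 mpt, and stayed within 1.5 times of these under every alternative run, at 5363 to 8210 and 3522 to 6036, the lowest at 7 mpt without control replicates 2 and 4. With the replicate number as a block, 6047 and 4484 genes were called, the log2 fold changes of *hamp*, *ambp*, *fgb* and *apoa2* at 7 mpt became 5.49, -6.12, 0.87 and 0.89, and 4 iron genes were called lower at 7 dpt in place of 11. Same-numbered libraries deviated together with correlations of only -0.03 to 0.14 at 7 dpt and 0.0 to 0.12 at 7 mpt, so the numbers are not read as pairs. The letter contrast called 1 gene, but 607 with DESeq2, 36 with no filter, 14 with at least 10 counts in every library, 9 within control and 4 within *il11a*OE, and 1 to 31 with a library left out, the highest without control replicate 4. Of 188 fold changes of the 10 genes between *il11a*OE and control under alternatives, 140 moved by less than 1 SD of the replicates, 48 by more, and 0 of a called gene changed sign. The causes were not tested.

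Depth limits *fgb*, *fgg*, *apoa2* and *apoa1b* at 7 dpt, where libraries hold a few counts, and at 7 mpt each fragment counts as 2 mates, so that counts overstate precision. The fitted values of *fga* and *saa* at both time points, and of *fgb*, *hamp*, *apoa2* and *ambp* at 7 mpt, rest on groups with libraries at 0.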
